A study of Mus musculus with 7 samples.

Results

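Mir155hg, Mir221 and AI504432 are a microRNA host transcript, a microRNA hairpin gene and a long noncoding RNA whose levels in activated mouse B cells are described here. They were found by symbol in the deposited table of the comparison between Batf knockout (Batf KO) and wild-type cells, which lists 752 genes, and 3 of 3 were present. Both groups were splenic B cells from mice on a C57BL/6J background, taken up on magnetic columns and cultured for 6 h with 20 µg/mL lipopolysaccharide (LPS) and 20 ng/mL interleukin-4 (IL-4). RNA was sequenced from 3 libraries labelled Batf KO and 4 labelled wild type, each treated as 1 mouse. The labels give neither age nor sex, and do not say how the Batf allele was made or in which cells it is disrupted. The design text speaks of 2 replicates of each sample without saying what these were. BATF belongs to the AP-1 transcription factors, with JUN proteins and IRF4 or IRF8 as its partners on DNA, and the series title names Mir155hg among the genes it regulates.

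A microRNA is cut from a hairpin in a longer primary transcript by Drosha and then Dicer. Loaded on an Argonaute protein, it pairs through its seed with messenger RNAs and lowers their stability or translation. miR-155 comes from Mir155hg, once called Bic, which NF-kappaB and AP-1 factors switch on in activated lymphocytes. Mice without it form weak germinal centres and little switched antibody. miR-221 and miR-222 are a clustered pair known for repressing the receptor gene Kit and the cell cycle inhibitor gene Cdkn1b. AI504432 is annotated as a long noncoding RNA, and no function is assumed for it here.

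The sequences below show what the host and hairpin genes encode, with their hairpins' mature arms in capitals, 5′ to 3′. They were read from RefSeq on GRCm38.p6, the assembly also called mm10, which held 1 of the 3 members (Mir221) under its own name, and Mir155 and Mir222 besides.
Mir155 hairpin, chr16:84714140-84714204, plus strand: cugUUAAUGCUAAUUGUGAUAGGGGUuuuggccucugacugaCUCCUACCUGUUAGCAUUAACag
Mir221 hairpin, chrX:19146294-19146388, minus strand: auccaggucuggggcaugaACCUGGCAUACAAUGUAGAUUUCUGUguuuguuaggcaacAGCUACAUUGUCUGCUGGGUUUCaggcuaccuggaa

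The mature strands that guide repression are given next with the seed, bases 2 to 8, in capitals, because the comparison with reported targets rests on it.
miR-155-5p: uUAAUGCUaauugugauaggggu
miR-221-3p: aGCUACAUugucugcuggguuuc
miR-222-3p: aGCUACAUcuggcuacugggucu
The seed of miR-155-5p was carried by 1 of the 1738 mature sequences of that table, its own. That of miR-221-3p was carried by 3, among them miR-222-3p, whose first 8 bases are identical to those of miR-221-3p.

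Mir155hg (ENSMUSG00000097418) spans chr16:84703167-84715245 on the plus strand. Its 2 annotated transcripts start 11 kb and 1.12 kb before the hairpin, have 2 exons each, and carry the hairpin in exon 2. Mir221 (ENSMUSG00000065422) is annotated as the 95-base hairpin alone, and Mir222 lies 504 bases from it on the same strand. AI504432 (ENSMUSG00000056145) spans chr3:107039504-107054347 on the plus strand, with 2 exons that sum to 5569 bases. It begins 1.43 kb after the end of Kcna3, a potassium channel gene on the same strand, and lies inside the span of the antisense gene Gm27008. An exon of the antisense gene lies in the intron of AI504432, and none overlaps its exons. The values below are reads on the annotated genes. Mature microRNAs were not measured separately, and the sources used here do not give the strand setting of the counting.

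**Figure D1:**
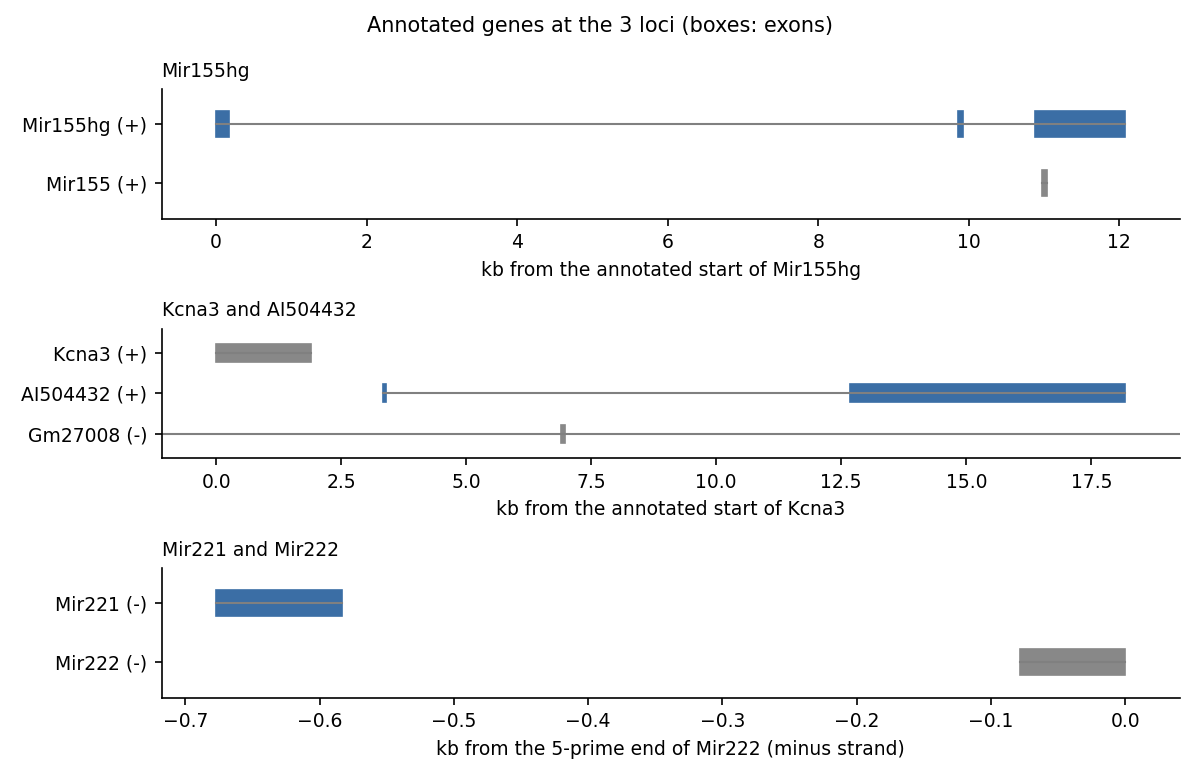
Annotated genes at the loci of the members, drawn to scale in kb from a gene start, with exons as boxes (blue for the members, grey for other genes) and strands in parentheses. The Mir155 hairpin lies in the last exon of Mir155hg, and AI504432 begins 1.43 kb after Kcna3.

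All 3 genes were lower in Batf KO than in wild type, and the libraries of the groups did not overlap for any of them. The first follows from the choice of members and the second largely does, so neither is evidence. The authors' deposited table lists 752 of 19734 tested genes at a false discovery rate (FDR) under 0.05, or 3.81%, with 1.86% lower and 1.95% higher in Batf KO. Among the 368 listed genes that were lower, 362 lay lower without overlap, or 48.1% of all 752. Of the 384 higher ones, 350 lay higher without overlap. In the authors' deposited table the FDR was 0.0124 for Mir155hg, 0.00028 for Mir221 and 2.18e-29 for AI504432, and these values chose the members. No test of the genotypes is therefore given for them. Batf, the targeted gene, was lower in each library labelled Batf KO (63.4 to 70.3 CPM) than in any labelled wild type (307 to 333 CPM). Log2 fold changes below are from edgeR's quasi-likelihood fit over the listed genes, with their standard errors (SE). In bulk RNA, fewer cells of a type and less RNA per cell cannot be told apart.

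Mir155hg was an abundant transcript in both genotypes. By its mean wild-type level it ranked 10 of 752 in CPM, the read count scaled to the effective library size. It stood at 477, 454, 593 and 557 CPM in wild-type replicates 1 to 4 and at 385, 383 and 370 CPM in Batf KO replicates 1 to 3. The knockout libraries sat close together below the lowest wild-type library, while the wild-type libraries were spread. The means were 520 ± 65.5 CPM (n = 4, SD) and 379 ± 8.33 CPM (n = 3, SD). The log2 fold change was -0.46 (SE 0.10), which left 72.9% of the wild-type level. Among the 368 genes lower in Batf KO it ranked 291st by size of the decrease, so most listed decreases were larger.

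The libraries of Mir155hg were spread more in wild type, with a coefficient of variation of 12.6%, than in Batf KO, at 2.20%, and replicates 3 and 4 were the higher ones. The difference in spread was not tested. At this depth read counting adds little to it, 0.761% and 0.990%. The log2 fold change ran from -0.39, without wild-type replicate 3, to -0.52, without wild-type replicate 2. Its direction was the same with any 1 library left out, which follows from the groups not overlapping. Its size moved with the wild-type libraries it was set against.

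AI504432 showed a larger decrease at a lower level. It was measured at 34.7, 34.4, 38.5 and 43.5 CPM in wild-type replicates 1 to 4 and at 11.8, 13.7 and 12.7 CPM in Batf KO replicates 1 to 3. The lowest wild-type library was above the highest knockout library by 54.7% of the wild-type mean, against 13.3% for Mir155hg. The means were 37.8 ± 4.26 CPM (n = 4, SD) and 12.7 ± 0.95 CPM (n = 3, SD), a log2 fold change of -1.57 (SE 0.11), or 2.96-fold lower. By size of the decrease it ranked 58th of 368. With any 1 library left out the log2 fold change stayed between -1.62 and -1.49, a narrow range beside its size.

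Mir221 was near the limit of detection. Its reads numbered 7, 5, 17 and 9 in wild-type replicates 1 to 4 and 1, 0 and 0 in Batf KO replicates 1 to 3. These correspond to 0.176, 0.166, 0.380 and 0.362 CPM and to 0.0324, 0 and 0 CPM. A count of 0 allows up to 0.111 CPM in Batf KO replicate 2 and 0.127 CPM in replicate 3, below each wild-type value as measured. The wild-type values rest on 5 to 17 reads and carry counting error as well. Single libraries are therefore not resolved from each other by these limits, which do not cover Batf KO replicate 1. Pooled over libraries, 38 wild-type reads stood against 1 knockout read, a 22.2-fold difference per library size with an exact 95% interval of 3.75 to 899. Intervals and limits of this kind cover counting error only. The size of the Mir221 decrease is therefore known only roughly, and the gene was below the filter of a mean of 1 CPM that the other 2 members passed. The fitted log2 fold change was -4.09 (SE 0.85) without that filter. Mir221 lies on the X chromosome, and 72 reads of the Y chromosome gene Usp9y were found in Batf KO replicate 1 and 0 in the other libraries. That replicate also held the single knockout read of Mir221, and the part of sex in these values was not tested.

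**Figure D2:**
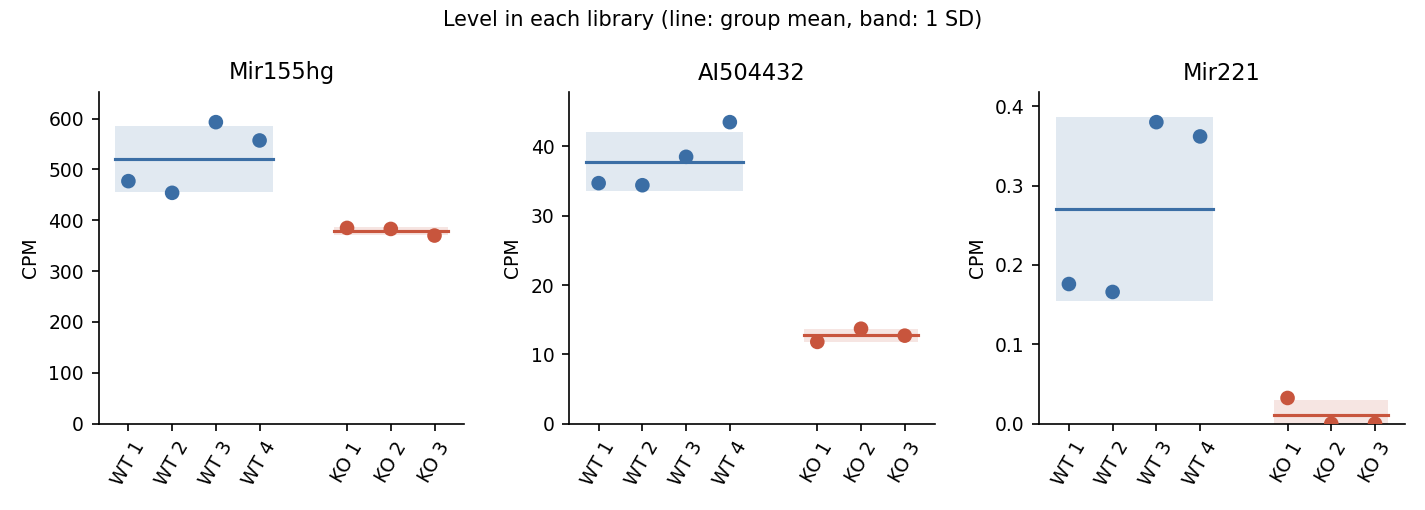
Level of Mir155hg, AI504432 and Mir221 in each library in CPM on linear axes from 0, with wild-type (WT) libraries in blue and Batf KO libraries in red. Lines are group means and bands 1 SD; each knockout point lies below each wild-type point, and in all 3 panels wild-type replicates 3 and 4 lie above replicates 1 and 2.

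In all 3 genes the wild-type libraries fell in a similar order, with replicates 3 and 4 above replicates 1 and 2. The labels name no batch, but the running numbers in the library titles of replicates 3 and 4 lie beyond all others, while those of replicates 1 and 2 lie on either side of the knockouts. The wild-type libraries were divided into these pairs after their values were seen, and the SEs of the fits do not cover that choice. Against wild-type replicates 1 and 2 alone the log2 fold change of Mir155hg was -0.30 (SE 0.06), and against 3 and 4 alone -0.60 (SE 0.07). For AI504432 these values were -1.44 and -1.69, and for Mir221 -3.42 and -4.52. All 3 genes were lower in Batf KO against either pair, which follows from the groups not overlapping. The size for Mir155hg varied by a factor of 2 on the log2 scale. What the numbers stand for is not stated, and their part in these values was not tested.

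Per kilobase of annotated exon the order in wild type was Mir155hg, AI504432, Mir221. The levels were 363 ± 45.7, 6.79 ± 0.765 and 2.85 ± 1.22 CPM per kb (n = 4, SD). Mir155hg did not overlap the other 2 members on this scale in any library. AI504432 at 6.18 to 7.82 CPM per kb was also above Mir221 at 1.75 to 4.00 CPM per kb. Without Batf the order was the same, at 265, 2.29 and 0.114 CPM per kb. A sequenced fragment can be longer than the Mir221 hairpin, so its value per length is not on quite the same footing.

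Kcna3 encodes the voltage-gated potassium channel Kv1.3 of lymphocytes. Among 13 annotated genes within 250 kb of AI504432 it was the only listed gene, where 3.81% of all tested genes were listed. It was measured at 11.6, 11.7, 13.3 and 14.8 CPM in wild-type replicates 1 to 4 and at 3.11, 5.79 and 3.76 CPM in Batf KO replicates 1 to 3. Its wild-type libraries stood in nearly the same order as those of AI504432, and its groups did not overlap. The log2 fold change of Kcna3 was -1.61 (SE 0.22), beside -1.57 (SE 0.11) for AI504432. The ratio of AI504432 to Kcna3 in CPM was 2.89 to 2.99 in wild type. In Batf KO it was 3.80, 2.37 and 3.37, on both sides of the wild-type range. Whether these reads come from 1 transcript or 2 was not tested.

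**Figure D3:**
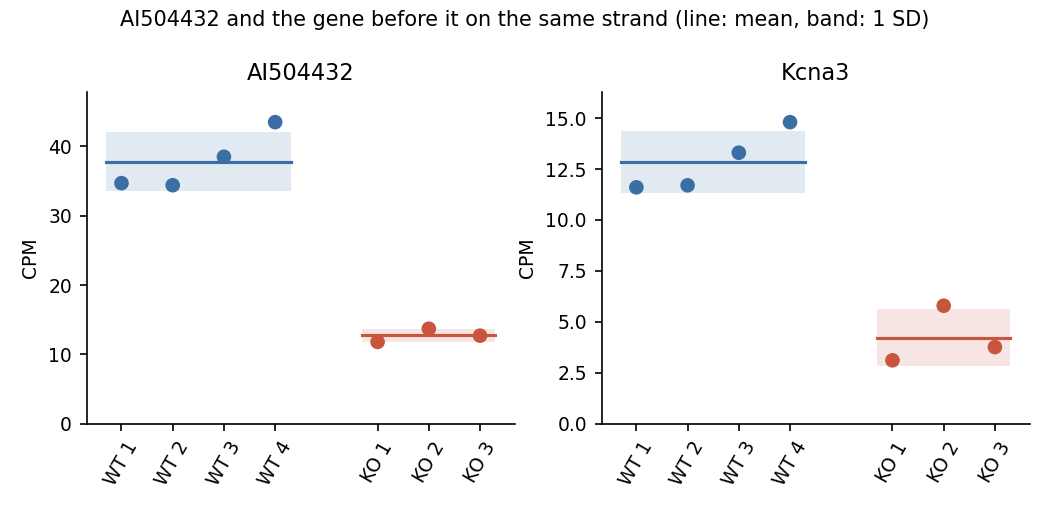
Level of AI504432 and of Kcna3, the gene before it on the same strand, in each library in CPM on linear axes from 0, with group means as lines and 1 SD as bands. Both genes are lower in each Batf KO library than in any wild-type library, and Kcna3 is highest among the knockouts in replicate 2 at 5.79 CPM.

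Of 15 annotated genes within 250 kb of Mir155hg, 1 was listed, where 3.81% of all tested genes were. This was App, the amyloid precursor protein gene, 234 kb away on the other strand, at 5.94 ± 0.836 CPM (n = 4, SD) in wild type against 3.32 ± 0.756 CPM (n = 3, SD) without Batf. None of the 7 annotated neighbours of Mir221 was listed, Mir222 included. A gene that is not listed has no value here, since the table holds only genes that passed the authors' threshold.

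Genes of a fixed list of NF-kappaB and AP-1 inputs to Mir155hg did not move in 1 direction. Of its 27 genes, 8 were listed, where 3.81% of all tested genes were. The list was chosen with earlier results of these data known and holds Batf itself, so this count is not evidence of an excess. Of the 8 genes, 6 were higher and 2 lower in Batf KO, where 384 of all 752 listed genes were higher. The lower members were Batf itself, at 319 ± 11.2 CPM (n = 4, SD) against 66.5 ± 3.49 CPM (n = 3, SD), and Smad3, a mediator of TGF-beta signalling (log2 fold change -0.54, SE 0.12). The higher members included the AP-1 genes Jun (0.86, SE 0.12) and Jund (0.50, SE 0.14) and the BATF partner gene Irf4 (1.12, SE 0.09). Irf8, Nfkbid, which encodes a nuclear IkappaB protein, and Ets2 were higher by 0.60, 0.49 and 0.58 on the log2 scale. Whether the levels of these messengers bear on the decrease of Mir155hg was not tested. None of the Rel and NF-kappaB subunit genes was listed. None of 45 symbols for genes of microRNA processing and Argonaute function was listed either, of which 37 are current symbols of the annotation. Drosha, Dicer1 and Ago2 are among them.

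The RefSeq promoter window of Mir155hg, chr16:84712773-84713072, belongs to the start 1.12 kb before the hairpin. AI504432 and Mir221 had no window in that table. On both strands the window of Mir155hg held no AP-1 motif TGANTCA, which 7.81% of 32851 promoter windows held, and so none with GAAA, part of an IRF site, directly before it (0.125% of windows). It held no kappaB motif GGGNNTTCC, which 5.82% held. These letters not being in the window says nothing of BATF binding there or elsewhere.

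Of 43 reported targets of miR-155, 4 were listed, 3 higher and 1 lower in Batf KO, where 384 of all 752 listed genes were higher (1.95% of those tested) and 368 lower. The lower one was Tab2, an adaptor of the TAK1 kinase. Bcl6, the germinal centre repressor, Peli1, a ubiquitin ligase of Toll-like receptor signalling, and Wee1, a mitosis-inhibiting kinase, were higher.

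Tab2 was measured at 195, 205, 227 and 225 CPM in wild type and at 157, 161 and 154 CPM in Batf KO. Its log2 fold change was -0.43 (SE 0.07), and wild-type replicates 3 and 4 were again the higher ones. Bcl6 was 45.9 ± 4.54 CPM (n = 4, SD) in wild type against 67.8 ± 3.21 CPM (n = 3, SD) without Batf, a log2 fold change of 0.56 (SE 0.09). Peli1 and Wee1 were higher by 0.41 (SE 0.06) and 0.38 (SE 0.09) on the log2 scale.

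The 4 listed targets of miR-221 and miR-222, of 30 in that list, were all higher in Batf KO. That direction was shared by 384 of the 752 listed genes, or 1.95% of those tested. Kit, the stem cell factor receptor gene, was measured at 0.477, 0.631, 0.134 and 0.241 CPM in wild type and at 1.43, 1.86 and 0.971 CPM in Batf KO. Its groups did not overlap, and 50 wild-type reads stood against 117 in Batf KO, a 4.01-fold difference (exact 95% interval 2.86 to 5.70). That interval covers counting error only, while the wild-type coefficient of variation was 60.7%. The log2 fold change of Kit, fitted without the CPM filter, was 1.95 (SE 0.46). Within wild type Kit was lower in replicates 3 and 4, at 6 reads in each, where Mir221, Mir155hg and AI504432 were all higher. Mir221 rested there on 17 and 9 reads, against 7 and 5 in replicates 1 and 2. Any relation of Kit to Mir221 was not tested. Socs3, an inhibitor of cytokine signalling, was higher by 0.81 (SE 0.11) on the log2 scale. Icam1, an adhesion molecule gene, was higher by 0.39 (SE 0.11) and Usp18, an interferon-induced protease gene, by 0.64 (SE 0.24). Wild-type Usp18 ranged from 43.0 to 105 CPM and, like Kit, was lower in replicates 3 and 4. Icam1 was higher in these replicates, at 298 and 301 CPM against 238 and 230 CPM in replicates 1 and 2. Socs3 in replicate 4, at 94.7 CPM, lay between replicates 1 and 2. The listed targets thus shared no order within wild type.

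**Figure D4:**
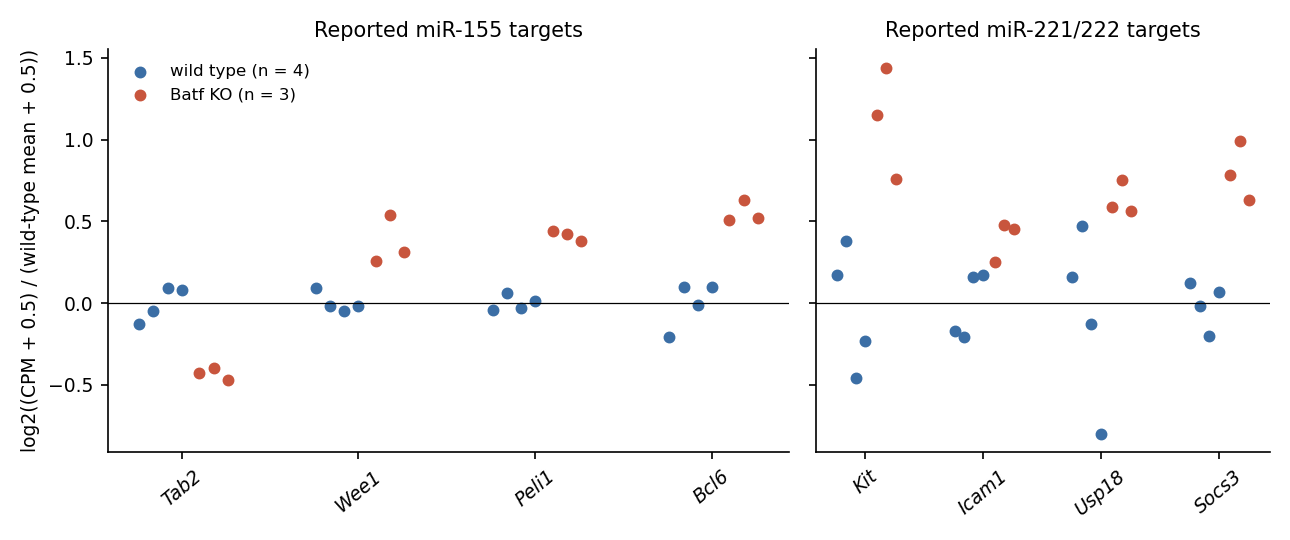
Listed members of the lists of reported miR-155 targets (left) and miR-221 and miR-222 targets (right), as the log2 ratio of CPM plus 0.5 to the wild-type mean plus 0.5, 1 point per library. Tab2 lies below the wild-type libraries in each knockout library and the other 7 genes above them, and the added 0.5 makes the change of Kit, which has few reads, look smaller than it is.

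Seed matches were looked for in the longest annotated 3′ untranslated region of each of these genes. The miR-155-5p match was found once in Tab2 and once in Wee1, and not in Bcl6 or Peli1. The miR-221-3p match was found in 2 places in Kit and not in Socs3, Icam1 or Usp18. Each site is shown as 30 bases of the transcript, with the 7 bases complementary to the seed in capitals, because these are the targets described here whose messenger carries a match.
Tab2, chr10:7906691-7906720, minus strand: aaagcaatgccataaggtagaaAGCATTAa
Wee1, chr7:110142680-110142709, plus strand: agtttcctcttgctgtaaaactAGCATTAa
Kit, first site, chr5:75654970-75654999, plus strand: catccttaatgatgggagatatATGTAGCa
Kit, second site, chr5:75656501-75656530, plus strand: ggctttttttgtaaatattgaaATGTAGCa
Each of the 4 matches was followed by an A, the form known to be repressed most. The targets with a miR-155-5p match differed in direction, with Tab2 lower and Wee1 higher in Batf KO.

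Over the listed coding genes with a mean of at least 1 CPM and an annotated 3′ untranslated region, 53.1% of 616 were higher in Batf KO. Of the 80 with a miR-155-5p match, 34 were higher and 46 lower (42.5% higher). Of the 71 with a miR-221-3p match, 30 were higher and 41 lower (42.3% higher). Genes with a match were thus more often lower than higher, in the same direction as Mir155hg and Mir221. Their untranslated regions were long, with medians of 2987 and 3357 bases against 1550 bases over all 616 genes. Among the 308 genes with a region longer than 1550 bases, 45.8% were higher. The share was 42.0% for the 69 with a miR-155-5p match and 46.9% for the 239 without, and 41.5% for the 65 with a miR-221-3p match and 46.9% for the 243 without. Among the 308 genes at or under 1550 bases, 45.5% of 11 with a miR-155-5p match and 60.9% of 297 without were higher, as were 3 of 6 with a miR-221-3p match and 60.6% of 302 without. In both length classes the share was lower with a match. In the longer class the shares with a match, 29 of 69 and 27 of 65 genes, were near the 45.8% of all 308. The shorter class held only 11 and 6 genes with a match. Lengths were not matched within a class, so the part of length in these shares cannot be told apart. A miR-155-5p match stood in 13.0% of the 616 genes and in 8.28% of 21028 annotated coding genes, and a miR-221-3p match in 11.5% and 9.46%. The annotated genes were neither filtered by level nor matched by length, so these sets are unlike and no excess can be read from them. No share was tested, since the table was selected on the same contrast.

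The genes whose profile over the 7 libraries was nearest to that of each member were found by the root mean square difference of log2 ratios to the wild-type mean. For Mir155hg they were Ubl7 (0.05), Tanc2 (0.07) and its reported target Tab2 (0.07). For AI504432 they were Mapre2 (0.14), Adam19 (0.15) and Hlx (0.16). For Mir221 they were Tagap (0.05), Tanc2 (0.09) and Gm49339 (0.09). For Mir221 this likeness is of little weight, since the 0.5 CPM added to each value exceeds its levels. Ubl7, which encodes a ubiquitin-like protein, was 78.5 ± 10.3 CPM (n = 4, SD) in wild type against 58.6 ± 0.981 CPM (n = 3, SD) without Batf. It had the same wide wild-type and narrow knockout spread as Mir155hg, which follows largely from its choice by nearest profile. Hlx, a homeobox factor gene, was 13.8 ± 1.53 CPM (n = 4, SD) in wild type against 4.13 ± 0.536 CPM (n = 3, SD) without Batf. Adam19, a metalloprotease gene, had a log2 fold change of -1.49 (SE 0.11), close to that of AI504432, which likewise follows from the choice.

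The table held 35 genes annotated as noncoding or pseudogene, 14 higher and 21 lower in Batf KO. Of the 20 long noncoding RNAs among them, 6 were higher and 14 lower, while 384 of all 752 listed genes were higher and 368 lower. With a mean of at least 1 CPM there were 21 noncoding genes, 9 higher and 12 lower, and AI504432 had the largest decrease of them. The antisense genes Gm13561 and Gm16170 and the pseudogene Slfn10-ps were lower by 1.36, 1.33 and 1.36 on the log2 scale. Gm16170 varied widely in wild type, from 3.12 to 11.4 CPM. Without a stated strand setting, reads of antisense genes and of their partners cannot be told apart.

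Among the noncoding genes with a mean of at least 1 CPM, the largest increases exceeded the largest decrease, which depends on that filter. The genes n-R5s64 and Gm4294 passed it only through knockout libraries. Over all 35 noncoding genes the extremes were 4.67 (n-R5s64) and -4.62 on the log2 scale. The latter was the pseudogene Gm12390, with 13 wild-type and 0 knockout reads. The ribosomal RNA gene n-R5s64, a short way past the end of Batf on chromosome 12, had 19 wild-type and 292 knockout reads in all. Counts of such repeated genes and of pseudogenes are uncertain, since reads can be shared with near-identical copies. The antisense gene A930024E05Rik was 1.25 ± 0.293 CPM (n = 4, SD) in wild type against 4.00 ± 0.684 CPM (n = 3, SD) without Batf. The pseudogene Gm4294 had 233 reads in Batf KO replicate 1 and 18 and 4 in the others, so its increase rested on 1 library, and its groups overlapped. Gm24187, the other annotated microRNA gene of the table, was 1.06 ± 0.82 CPM (n = 4, SD) in wild type against 2.91 ± 0.22 CPM (n = 3, SD) without Batf. The 2 microRNA genes of the table thus differed in direction, Mir221 lower and Gm24187 higher.

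**Figure D5:**
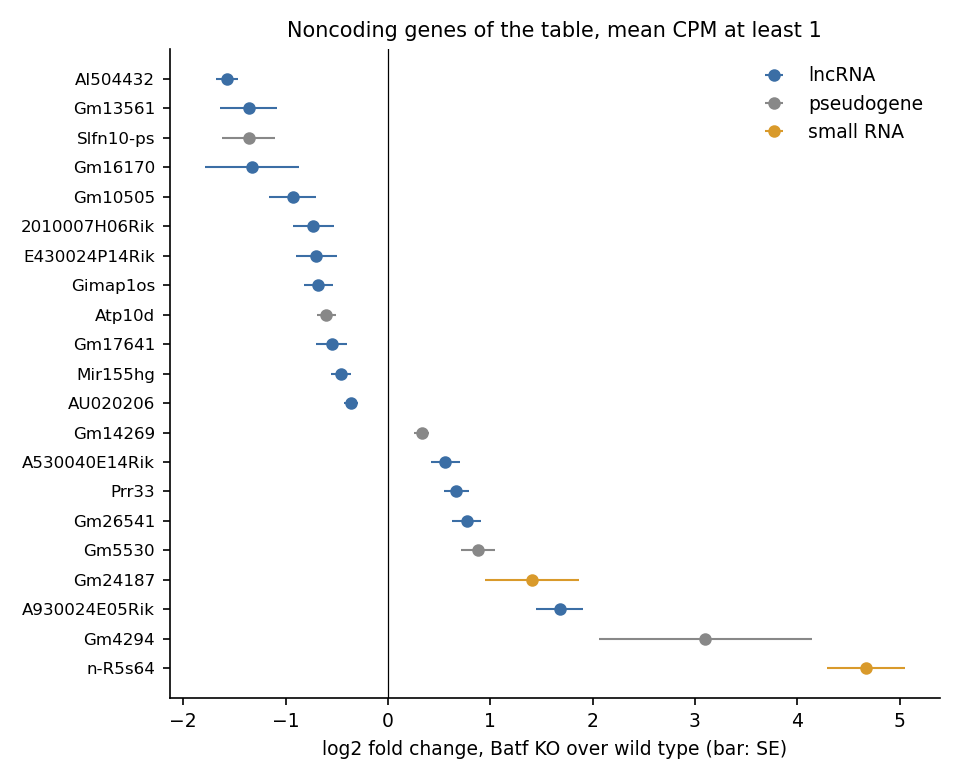
Log2 fold change of Batf KO over wild type for the 21 noncoding genes with a mean of at least 1 CPM, with the SE of the fit as bars and colours for long noncoding RNAs, pseudogenes and small RNAs. AI504432 has the largest decrease at -1.57 and n-R5s64 the largest increase at 4.67, and Mir155hg at -0.46 is among the smaller decreases.

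Effective library sizes were 23675459 to 44728937 reads. For the marker counts below, 3.81% of all tested genes were listed. Of 12 B cell markers 3 were listed, Ms4a1, Ighm and Blk, with summed levels of 2174 to 2529 CPM in wild type and 2129 to 2223 CPM in Batf KO. Ms4a1 (mean 580 against 879 CPM) and Blk (72.5 against 104 CPM) were higher in Batf KO and Ighm (1634 against 1202 CPM) lower. Of 16 T and NK cell markers 2 were listed, Cd8b1 and Tbx21, with sums of 2.81 to 12.6 CPM and 5.70 to 7.88 CPM. Cd8b1 was higher in each knockout library (1.48 to 2.59 against 5.24 to 7.42 CPM) and Tbx21 lower (1.25 to 10.1 against 0.186 to 0.465 CPM). Of 16 myeloid markers only Zbtb46 was listed (47.4 to 65.6 CPM and 73.6 to 89.6 CPM), and of 10 erythroid and platelet markers only Pf4 (0.281 to 0.627 CPM and 0.760 to 1.04 CPM). Plasma cell markers Irf4, Slamf7 and Prdm1 were listed of 9, with sums of 697 to 848 CPM and 1529 to 1742 CPM, of which Irf4 made most, while Prdm1 was lower in Batf KO. The plasma cell sum and the single listed myeloid and platelet markers were thus higher in Batf KO, and the part of these markers in the members' values was not tested.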

How the data were processed

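RNA of 3 Batf KO and 4 wild-type cultures was measured by paired-end sequencing, per the labels' protocols. The build mm10 and the tools edgeR 3.03, HTSeq 0.5.3p7 and TopHat2 2.0.6 come from the submitters' processing notes, which state no roles. The sources used here do not give the annotation, the strand setting or the treatment of multiply mapped reads. Per the file headers, the 1 deposited table gives read counts and CPM per gene and library. The authors' comparison stands beside them, per the file headers: p-value, FDR, likelihood ratio (a score), and mean CPM and fold change, both as log2. Its highest FDR is 0.0499, so it holds only genes selected on that contrast, from 19734 by the ratio of FDR to p-value.

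Groups were taken from the genotype label. Replicates were treated as separate mice, numbered in accession order and not paired. Library sizes were recovered as count over CPM. Counts of the 667 genes with a mean of at least 1 CPM were fitted with edgeR 4.0.16 in R 4.3.3, and 85 genes, Mir221 included, were fitted only without this filter. The step was checked on simulated counts. DESeq2 1.42.0, limma 3.58.1 on log2(CPM + 0.5), TMM scaling and leaving out each library were alternatives. Positions, biotypes and 3′ untranslated regions came from GENCODE M21 (742 of 752 genes matched). Genes were named as members, as nearest profiles (3 for each member), as listed genes of the fixed lists or within 250 kb of a member, and as noncoding genes with an absolute log2 fold change of at least 1. Usp9y was chosen after its values were seen. The members and lists were chosen with earlier results of these data known. Some genes of the miR-155 target list are not reported here and are left out of its counts.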

Additional observations from a re-analysis of the deposited data

Results flagged for a closer look

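Among the 4 wild-type libraries, the highest or lowest was picked out where the distance to its neighbour, as a share of the whole spread, passed the 95% critical value of Dixon's test. This was applied to the wild-type values of 45 genes, where chance gives about 2.25 (1 in 20), and 1 was found. Gm24187, the other annotated microRNA gene of the table, was 2.28 CPM (102 reads) in wild-type replicate 3 and 0.552, 0.631 and 0.763 CPM (19 to 22 reads) in replicates 1, 2 and 4. None of Mir155hg, Mir221 and AI504432 had a wild-type library that stood apart in this way. Groups of 3 were not examined.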

How the results depend on the processing

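None of the 3 members' fold changes, the 2 counts of noncoding genes or the 2 medians over seed-matched genes reversed under the alternatives that gave a value. With 1 library left out, the log2 fold change was -0.52 to -0.39 for Mir155hg, -1.62 to -1.49 for AI504432 and -4.25 to -3.64 for Mir221. Without Batf KO replicate 1, Mir221 had 0 knockout reads and no fitted value is given (at least 4.59-fold lower, with 3 reads over the group as the floor, and an exact 95% lower limit of 3.56 that also counts the error of the wild-type reads). For Mir221 the value on log2(CPM + 0.5) in limma was -0.58, because the 0.5 added exceeds its level, and the fit without the filter is its only edgeR value. Set against wild-type libraries 1 and 2 only, or 3 and 4 only, Mir155hg changed by -0.30 or -0.60. This comparison and the division of genes by length of the untranslated region were chosen after seeing the data. The counts of 9 higher and 12 lower noncoding genes became 14 and 21 without the filter, which adds genes, and 4 were higher among long noncoding RNAs alone, which removes some. Because the genes were selected on these libraries, this stability is not independent evidence. No paired analysis was possible because the labels give the groups no shared replicate numbers. Depth limits Mir221 and Kit.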
